A study of Mus musculus with 6 samples.

Results

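Wnt ligands, the R-spondins that amplify their signal and the receptors of both were followed in bone RNA of Col1a1+/- mice, which carry 1 altered copy of a type I collagen gene, and of wild-type (WT) mice. The members are 39 genes chosen by name, out of 56748 genes in the count tables: 19 Wnt ligands, 10 Frizzled receptors, the 3 co-receptor genes Lrp4, Lrp5 and Lrp6, 4 R-spondins and the 3 R-spondin receptor genes Lgr4, Lgr5 and Lgr6. RNA came from whole tibia of female mice 12 weeks old, in 3 libraries of genotype Col1a1+/- and 3 of genotype WT, and no treatment is named for any of them. Marrow was flushed out before the bones were frozen and ground, and polyadenylated RNA was sequenced. The series title calls the mice a model of osteogenesis imperfecta type I, the brittle bone disease of too little type I collagen, while the labels give neither the strain nor the nature of the Col1a1 allele. The labels also do not say whether each library stands for its own animal; the p-values therefore rest on the spread among these 6 libraries alone, which may be technical.

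Wnt proteins are secreted lipid-modified ligands that bind Frizzled receptors. With Lrp5 or Lrp6 as co-receptor they stop the breakdown of beta-catenin, which then acts with TCF and LEF factors on target genes, and other Wnt signals run without beta-catenin. R-spondins bind LGR receptors and the ligases Znrf3 and Rnf43, which otherwise remove Frizzled receptors from the cell surface. In bone, beta-catenin signalling favours osteoblasts, the cells that lay down matrix, and Lrp4 holds the Wnt inhibitor sclerostin at its site of action.

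Each library held 26.83 to 32.38 M reads, with means of 29.25 ± 2.82 M in Col1a1+/- and 30.47 ± 1.67 M in WT (SD, n = 3 each). Col1a1 itself stood at 61100, 52900 and 59600 CPM (counts per M reads) in Col1a1+/- and 36800, 61300 and 54800 CPM in WT, which overlapped (log2 fold change 0.18, SE 0.31, adjusted p = 0.78 by edgeR). Its ratio to Col1a2, the gene of the partner chain, was 0.836, 0.775 and 0.823 in Col1a1+/- and 1.32, 1.25 and 1.27 in WT, lower in every Col1a1+/- library. All 18 osteoblast markers and 11 of 13 osteocyte markers were expressed highly enough to be tested. The libraries also differed in the markers of several tissues. Osteoblast markers took 8.29% to 9.29% of counts in Col1a1+/- and 3.84% to 5.48% in WT (10 of 18 rose, 0 fell). Col1a2 made up most of that share, at a mean of 71200 CPM in Col1a1+/- and 40000 CPM in WT. It was not among the 10 that rose (log2 fold change 0.83, adjusted p = 0.159 by edgeR). Cartilage markers took 0.32% to 0.471% of counts in Col1a1+/- and 0.128% to 0.204% in WT (5 of 10 rose, 0 fell). Skeletal muscle markers took 2.02% to 4.09% of counts in Col1a1+/- and 6.43% to 8.05% in WT (0 of 24 rose, 10 fell). No marker of these lists was at 0 in all libraries. Neutrophil markers stood apart in WT replicate 1, at 0.591% of counts, against 0.0984% to 0.164% in the Col1a1+/- libraries and 0.141% and 0.145% in the other WT libraries. In bulk RNA, fewer cells of a type and less RNA per cell cannot be told apart, and the part of these lists in the differences below was not tested beyond the values given beside them.

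Of the 39 genes, 29 were expressed highly enough to be tested, and 2 of these rose in Col1a1+/-, the R-spondin receptor gene Lgr6 and the Frizzled gene Fzd5, while 0 fell (edgeR quasi-likelihood test, adjusted p under 0.05). That is 6.9% of the tested members, where 4.34% of all 18514 tested genes were called, 1.43% higher and 2.91% lower. The members were chosen with earlier results of these data known, so shares of members and of all genes are not an independent comparison. DESeq2 called 6 members higher and 2 lower (20.7% and 6.9%), beside 4.26% higher and 7.93% lower among all genes. Without adjustment, 12 members had p under 0.05, 9 higher and 3 lower, where 22.8% of all tested genes did, 9.59% higher and 13.2% lower. The 3 Col1a1+/- libraries lay above all 3 WT libraries for 11 members and below them for 2, together 44.8% of the tested members, while 28.6% of all tested genes did not overlap, 14% above and 14.5% below. The log2 fold change was above 0 for 20 of the 29 members (69%) and for 49.1% of all tested genes, with medians of 0.30 for members and -0.01 for all genes. On scaling to osteocyte markers the medians were -0.39 for members and -0.70 for all genes, and on scaling to osteoblast markers -0.46 for members and -0.77 for all genes. The count of called members rested on single libraries: it was 0 without Col1a1+/- replicate 1, without WT replicate 2 or without WT replicate 3, fits in which edgeR called 0, 8 and 0 genes of the whole table (3275, 3783 and 3239 before adjustment). It was 5 without WT replicate 1, with 4 higher and 1 lower, a fit that called 9.26% of all genes, 3.12% higher and 6.15% lower.

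**Figure D1:**
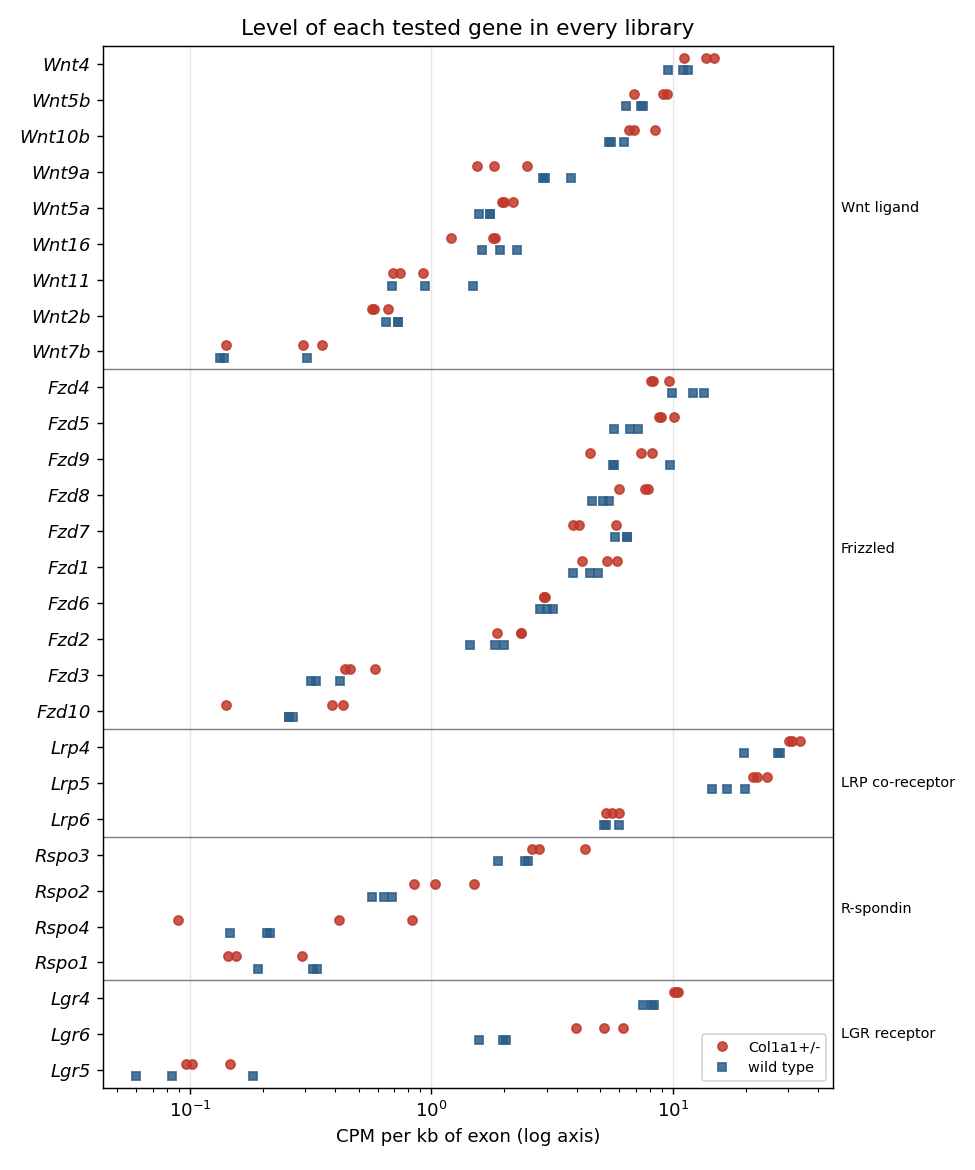
Levels of the 29 tested genes as CPM per kb of exon on a log axis, grouped by role, with 1 point per library, Col1a1+/- as circles above WT squares. Lrp4 and Lrp5 stand highest, at 31.6 and 22.7 CPM per kb on average in Col1a1+/-, and Lgr5 lowest, at 0.115 CPM per kb.

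**Figure D2:**
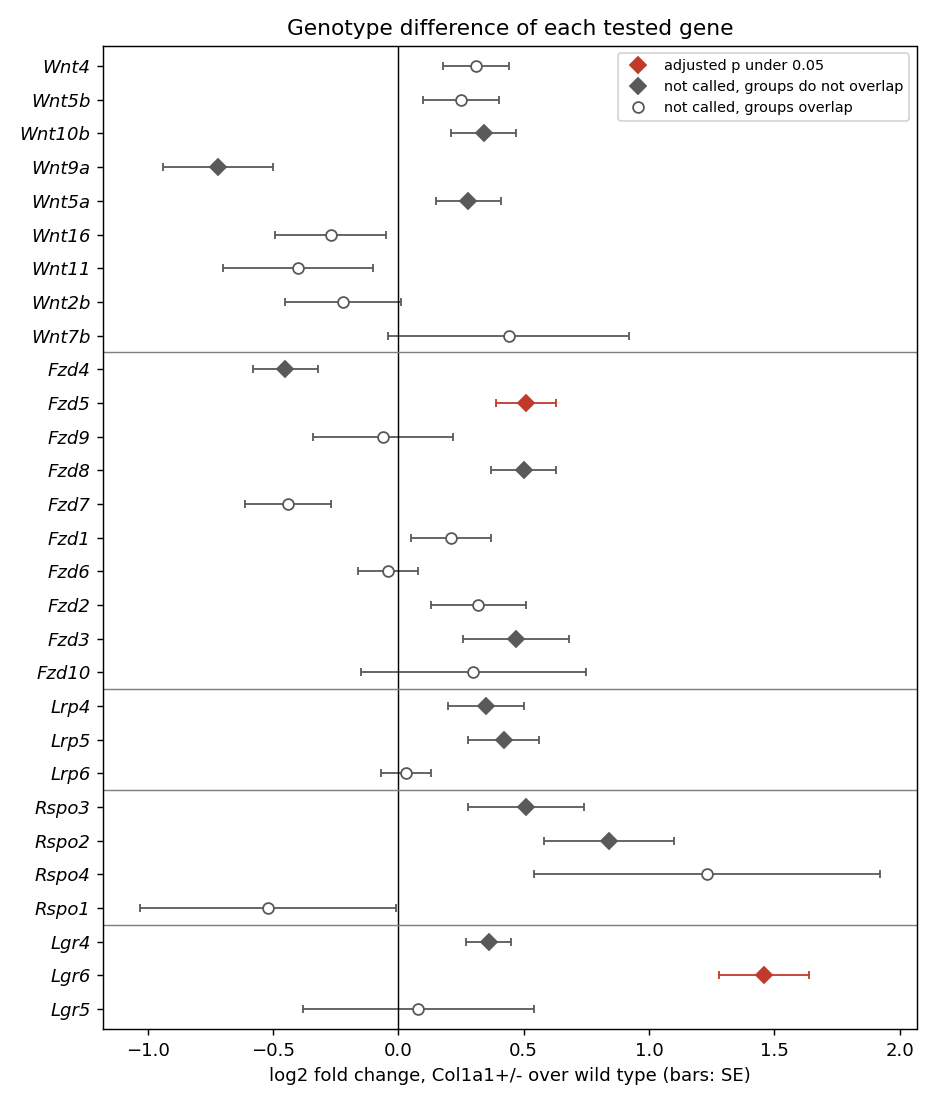
Log2 fold change of Col1a1+/- over WT for each tested gene, grouped by role, with bars for the standard error (SE) of the fit. Lgr6 at 1.46 and Fzd5 at 0.51 are the called genes, and filled symbols mark the 13 genes whose genotypes did not overlap.

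Levels are given as CPM after TMM scaling of the libraries (trimmed mean of M values), and levels of different genes are compared only as CPM per kb of exon. Among the ligands, 3 genes carried most of the transcripts per kb. Wnt4, a ligand with signals both through and beside beta-catenin, averaged 13.2 ± 1.87 CPM per kb in Col1a1+/- and 10.7 ± 1.02 CPM per kb in WT. Wnt5b, a ligand mostly tied to signalling without beta-catenin and known from cartilage, stood at 8.49 ± 1.37 CPM per kb in Col1a1+/- and 7.12 ± 0.604 CPM per kb in WT. Wnt10b, a ligand known to favour osteoblasts over fat cells, stood at 7.29 ± 0.979 CPM per kb in Col1a1+/- and 5.75 ± 0.467 CPM per kb in WT (SD, n = 3 each). These 3 genes made up 36.1%, 23.2% and 19.8% of ligand reads per kb in Col1a1+/- and 32.6%, 21.8% and 17.6% in WT.

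None of the 9 tested ligands passed the threshold, and the median log2 fold change of the 9 was 0.25. Wnt10b had 23.4, 28.6 and 22.4 CPM in Col1a1+/- replicates 1, 2 and 3, against 21.4, 18.5 and 18.8 CPM in the WT replicates. All Col1a1+/- values lay above all WT values, with a log2 fold change of 0.34 (adjusted p = 0.171 by edgeR, SE 0.13). Wnt5a, the main ligand of planar polarity signalling, likewise did not overlap, at 15.6, 15.3 and 17 CPM in Col1a1+/- and 12.2, 13.6 and 13.6 CPM in WT (log2 fold change 0.28, adjusted p = 0.23). Wnt4, at 62.1, 57.4 and 46.8 CPM in Col1a1+/- and 48.2, 46 and 39.9 CPM in WT, overlapped because Col1a1+/- replicate 3 lay below WT replicate 1 (log2 fold change 0.31, adjusted p = 0.201). Wnt5b overlapped too, at 18.4, 25.2 and 24 CPM in Col1a1+/- and 17, 20 and 19.6 CPM in WT (log2 fold change 0.25, adjusted p = 0.353).

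Wnt9a, a ligand known from joint and cartilage development, was the ligand with the smallest p and pointed the other way. It had 5.12, 8.25 and 6.04 CPM in Col1a1+/- and 9.8, 9.67 and 12.5 CPM in WT, with no overlap. The log2 fold change was -0.72 (adjusted p = 0.0867, SE 0.22), and Wnt9a made up 5.27% ± 0.934 of ligand reads per kb in Col1a1+/- and 9.81% ± 1.54 in WT. DESeq2 called it (adjusted p = 0.0247). Within each genotype, Wnt9a was highest in the library with the most muscle transcripts, Col1a1+/- replicate 2 (4.09% of counts) and WT replicate 3 (8.05%). The other libraries did not keep that order, as Col1a1+/- replicate 3 (2.02%) had 6.04 CPM and replicate 1 (2.22%) had 5.12 CPM. A part of muscle content in the difference was not tested. With the muscle score (mean log2 CPM of the muscle list) as a covariate the log2 fold change was 0.03 (adjusted p = 0.994), a fit in which edgeR called 0 genes of the whole table (1056 before adjustment). The score was 7.84, 8.94 and 7.33 in Col1a1+/- and 9.79, 10.1 and 10.75 in WT. Because it did not overlap between the genotypes, the fit can barely tell muscle from genotype, here and for the genes below.

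The remaining tested ligands were low and their genotypes overlapped. Wnt16, a ligand that restrains bone resorption in cortical bone, had 5.24, 7.83 and 8.02 CPM in Col1a1+/- and 8.37, 7.06 and 9.87 CPM in WT (log2 fold change -0.27, adjusted p = 0.526). Wnt11 had 3.06, 3.81 and 2.86 CPM in Col1a1+/- and 2.85, 6.12 and 3.88 CPM in WT (-0.40, adjusted p = 0.486), and without WT replicate 2, the highest library, the value was -0.05. Wnt2b had 2.79, 2.38 and 2.44 CPM in Col1a1+/- and 3.07, 2.72 and 3.05 CPM in WT (-0.22, adjusted p = 0.633). Wnt7b, a ligand that drives bone formation when expressed in mouse osteoblasts, was near the limit of testing, at 0.689, 1.43 and 1.73 CPM in Col1a1+/- and 0.682, 0.652 and 1.49 CPM in WT (0.44, adjusted p = 0.642).

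The other 10 ligands stayed below the filter on low counts, with at most 20 reads in any library. Wnt1, whose loss causes brittle bone disease in humans and mice, had 6, 8 and 18 reads in Col1a1+/- and 2, 5 and 4 reads in WT, or 0.365 ± 0.24 CPM in Col1a1+/- and 0.127 ± 0.0604 CPM in WT (SD, n = 3 each). The Col1a1+/- libraries all lay above the WT libraries in reads, but in CPM Col1a1+/- replicate 1 lay just below WT replicate 2. Wnt6 had 2 to 16 reads in Col1a1+/- and 7 to 12 in WT, and Wnt10a 2 to 8 in Col1a1+/- and 0 to 10 in WT. Wnt2 was seen in 1 library of each genotype, with 4 reads in Col1a1+/- replicate 3 and 20 in WT replicate 1. Wnt3, Wnt3a, Wnt8b and Wnt9b had 0 to 4 reads in every library. Wnt7a and Wnt8a had 0 reads in all libraries. If counts were independent, this would allow a level of up to 0.0927 to 0.112 CPM per library before TMM scaling (3 counts, counting error only). Each mate of a pair was counted, so counts are not independent and the limit is higher than this.

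Some of the Wnt genes lie in close pairs in the mouse genome, and 2 of the 4 close pairs joined ligands of unlike level. Wnt1 lies 11.7 kb from Wnt10b on chromosome 15, Wnt3a 16.2 kb from Wnt9a and Wnt3 24.3 kb from Wnt9b on chromosome 11, and Wnt6 6.2 kb from Wnt10a on chromosome 1 (GRCm39). Wnt10b averaged 7.29 CPM per kb in Col1a1+/- and 5.75 CPM per kb in WT, and its neighbour Wnt1 0.153 CPM per kb in Col1a1+/- and 0.0535 CPM per kb in WT. Wnt9a averaged 1.94 CPM per kb in Col1a1+/- and 3.21 CPM per kb in WT, while its neighbour Wnt3a had 0 reads in Col1a1+/- and 4 reads in 1 WT library. In the other 2 pairs all genes were at or below 0.121 CPM per kb in Col1a1+/- and 0.149 CPM per kb in WT.

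All 10 Frizzled genes were tested, and 1 rose and 0 fell, with a median log2 fold change of 0.26. Fzd5 (ENSMUSG00000045005; chromosome 1, 64769717 to 64776910, minus strand, GRCm39) encodes a receptor that carries signals of several Wnts through beta-catenin. It had 70.1, 60.4 and 61.7 CPM in Col1a1+/- and 49.6, 39.3 and 45.8 CPM in WT, so that every Col1a1+/- library exceeded every WT library. The means were 64.1 ± 5.27 CPM in Col1a1+/- and 44.9 ± 5.18 CPM in WT (SD, n = 3 each), a 1.43-fold difference, or a log2 fold change of 0.51 (adjusted p = 0.0472 by edgeR, SE 0.12). The call was close to the threshold: with 1 library left out it held only without WT replicate 1 (adjusted p = 0.0155), and in the other 5 cases the adjusted p was 0.0618 to 0.175 at log2 fold changes of 0.43 to 0.56. It was also lost with library totals as the scale (0.59, adjusted p = 0.0631), with the neutrophil and erythroid covariate (0.65, adjusted p = 0.0809) and with the muscle covariate (0.40, adjusted p = 0.845), and on osteocyte and osteoblast scaling the log2 fold change was -0.21 and -0.27, where all genes moved downward. An exon of the opposite strand overlaps 17.8% of the exon length of Fzd5, and reads there were counted for neither gene. The partner, Gm38058, had at most 15 reads in any library.

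Fzd8, the closest relative of Fzd5, showed a difference of like size. It had 47.2, 45.7 and 35.8 CPM in Col1a1+/- and 32.5, 27.7 and 30.6 CPM in WT, with no overlap (log2 fold change 0.50, SE 0.13, adjusted p = 0.0621). DESeq2 called it (adjusted p = 0.0252), as did edgeR without WT replicate 1 (adjusted p = 0.0333). The ratio of Fzd5 to Fzd8 reads per kb was 1.28, 1.14 and 1.49 in Col1a1+/- and 1.32, 1.23 and 1.29 in WT, a ratio 1.02 times as high in Col1a1+/- (exact permutation p = 0.9, two-sided).

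Fzd4 and Fzd7 pointed the other way. Fzd4, a receptor of blood vessel cells that also binds the ligand norrin, had 55.5, 64.8 and 54.6 CPM in Col1a1+/- and 66.3, 90.6 and 81.5 CPM in WT. The genotypes did not overlap but lay close together, and the log2 fold change was -0.45 (adjusted p = 0.088, SE 0.13). DESeq2 called Fzd4 lower (adjusted p = 0.0497), as did edgeR with no count filter (adjusted p = 0.0277). Endothelial markers took 0.0565% to 0.0703% of counts in Col1a1+/- and 0.0553% to 0.0591% in WT, with 0 of 7 called by edgeR. Fzd7, a receptor known from muscle stem cells, had 17.4, 26.4 and 18.5 CPM in Col1a1+/- and 26.1, 29.1 and 29.2 CPM in WT. Col1a1+/- replicate 2 reached the WT range, and the log2 fold change was -0.44 (adjusted p = 0.158, SE 0.17). Without that library it was -0.64 and Fzd7 was called (adjusted p = 0.0373), and without WT replicate 1 Fzd4 was called (-0.53, adjusted p = 0.022). Col1a1+/- replicate 2 was also the Col1a1+/- library with the most muscle transcripts. With the muscle covariate, in the fit that can barely tell muscle from genotype, the log2 fold changes were -0.07 for Fzd4 and 0.20 for Fzd7.

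**Figure D3:**
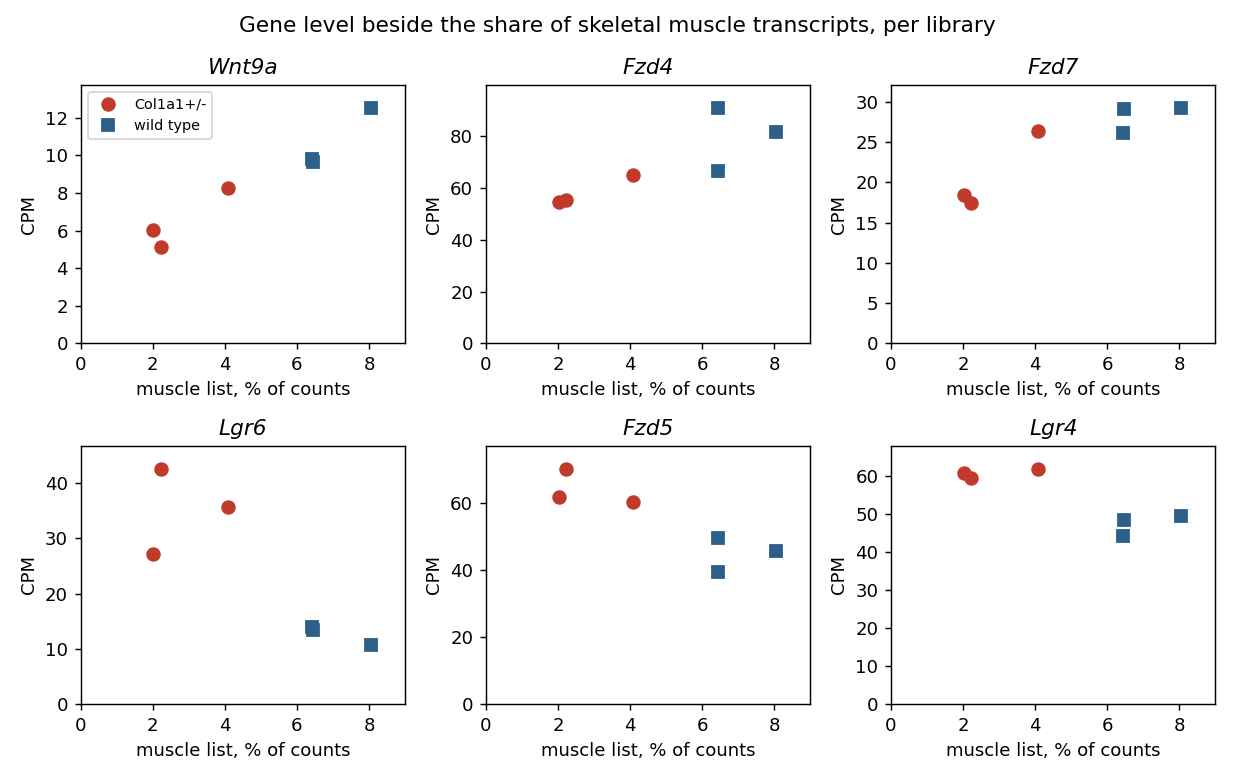
CPM of 6 genes (vertical axis) against the share of counts taken by 24 skeletal muscle genes (horizontal axis, %), 1 point per library, Col1a1+/- as circles and WT as squares. Wnt9a, Fzd4 and Fzd7 are highest within Col1a1+/- in the library at 4.09%, while within WT Fzd4 is highest at 6.45% (90.6 CPM) and lower at 8.05% (81.5 CPM); Lgr6, Fzd5 and Lgr4 are higher in all Col1a1+/- libraries than in any WT library.

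The 6 other Frizzled genes held no call. Fzd3, a receptor of planar polarity signalling, had 5.6, 5.87 and 7.49 CPM in Col1a1+/- and 4.25, 5.36 and 4.05 CPM in WT, with no overlap (log2 fold change 0.47, adjusted p = 0.225). Fzd1 had 17.6, 22.4 and 24.7 CPM in Col1a1+/- and 16.2, 19 and 20.5 CPM in WT (0.21, adjusted p = 0.47). Fzd2 had 8.57, 8.63 and 6.85 CPM in Col1a1+/- and 6.76, 5.29 and 7.27 CPM in WT (0.32, adjusted p = 0.378). Both overlapped between the genotypes. Fzd6, which like Fzd3 serves planar polarity, hardly varied within Col1a1+/-, at 14.1, 14.2 and 14.1 CPM in Col1a1+/- and 13.5, 15.3 and 14.5 CPM in WT (-0.04, SE 0.12, adjusted p = 0.903). Fzd9, a receptor of osteoblasts in the mouse, scattered widely within both genotypes, at 17, 18.8 and 10.4 CPM in Col1a1+/- and 13, 12.9 and 22.3 CPM in WT (-0.06, adjusted p = 0.925). Fzd10 was low, at 0.459 to 1.4 CPM in Col1a1+/- and 0.831 to 0.868 CPM in WT (0.30, adjusted p = 0.75).

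Read per kb, the Frizzled transcripts were spread over several genes of like level. Fzd5 made up 19.6% ± 2.33, Fzd4 18.3% ± 0.881, Fzd8 15.1% ± 1.33 and Fzd9 14% ± 2.99 of Frizzled reads per kb in Col1a1+/-. In WT, Fzd4 came first at 25.5% ± 3.51, before Fzd9 at 14.9% ± 3.77, Fzd5 at 14.1% ± 2.27, Fzd7 at 13.4% ± 0.662 and Fzd8 at 11% ± 1.44 (SD, n = 3 each). The lead of Fzd5 over Fzd4 in Col1a1+/- was smaller than the spread between libraries, whereas the lead of Fzd4 in WT was larger than the spread of either gene.

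Lrp4 and Lrp5 were the most abundant members per kb. Lrp4, a receptor of sclerostin in bone cells and of agrin at the nerve-muscle junction, had 325, 318 and 353 CPM in Col1a1+/- and 291, 286 and 207 CPM in WT. The genotypes did not overlap (log2 fold change 0.35, SE 0.15, adjusted p = 0.214), and WT replicate 3, with the most muscle transcripts, had the lowest Lrp4 level. Genes of the nerve-muscle junction took 0.00196% to 0.00408% of counts in Col1a1+/- and 0.00431% to 0.00667% in WT (0 of 7 tested called by edgeR, median log2 fold change -0.99). With the muscle covariate the log2 fold change of Lrp4 was -0.07. Lrp5, the co-receptor whose loss gives fragile bones and whose gain gives dense bones in humans and mice, had 239, 216 and 209 CPM in Col1a1+/- and 141, 192 and 164 CPM in WT, again with no overlap. Its log2 fold change was 0.42 (adjusted p = 0.108, SE 0.14), and it was called by DESeq2 (adjusted p = 0.0457) and with library totals as the scale (0.51, adjusted p = 0.0406). Lrp6, the related co-receptor, had 72.2, 76.8 and 81.7 CPM in Col1a1+/- and 72.5, 70.9 and 82.1 CPM in WT (0.03, SE 0.10, adjusted p = 0.892). Lrp5 exceeded Lrp6 per kb in every library, at ratios of 4.65, 3.95 and 3.59 in Col1a1+/- and 2.74, 3.81 and 2.8 in WT, and these ratios overlapped (exact permutation p = 0.2, two-sided).

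None of the 4 R-spondin genes passed the threshold, with a median log2 fold change of 0.67. Rspo3, linked to bone density by human genetic association, was the main one per kb, at 64.5% ± 11.2 of R-spondin reads per kb in Col1a1+/- and 67.1% ± 4.91 in WT. It had 8.66, 8.11 and 13.3 CPM in Col1a1+/- and 7.72, 7.54 and 5.85 CPM in WT, with no overlap and a log2 fold change of 0.51 (adjusted p = 0.225, SE 0.23). An opposite-strand gene with 0 reads in every library shares 13.1% of its exon length. Without Col1a1+/- replicate 3, which stood above the rest, the value was 0.27, and with the muscle covariate it was -0.39. Rspo2 had 7.67, 4.33 and 5.26 CPM in Col1a1+/- and 2.91, 3.26 and 3.5 CPM in WT. Every Col1a1+/- library was above every WT library, and the log2 fold change was 0.84 (adjusted p = 0.091, SE 0.26; by DESeq2, adjusted p = 0.0246). Rspo4 had 1.98, 0.978 and 0.212 CPM in Col1a1+/- and 0.346 to 0.507 CPM in WT, so its log2 fold change of 1.23 (adjusted p = 0.328, SE 0.69) rested on Col1a1+/- replicate 1, without which it was 0.42. Rspo1 had 0.28 to 0.565 CPM in Col1a1+/- and 0.372 to 0.652 CPM in WT (-0.52, adjusted p = 0.599).

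Of the R-spondin receptors, Lgr6 rose and Lgr4 and Lgr5 did not pass the threshold. Lgr6 (ENSMUSG00000042793; chromosome 1, 134911039 to 135033014, minus strand, GRCm39) marks stem cells of skin and is expressed by bone-forming progenitors in the mouse. It had 42.5, 35.6 and 27.2 CPM in Col1a1+/- and 13.9, 13.5 and 10.8 CPM in WT. Every Col1a1+/- library was well above every WT library, and the means were 35.1 ± 7.66 CPM in Col1a1+/- and 12.7 ± 1.66 CPM in WT (SD, n = 3 each). The log2 fold change was 1.46 (adjusted p = 0.0192, SE 0.18), the largest among the 29 tested members. With 1 library left out the log2 fold change was 1.31 to 1.64. The call was lost without Col1a1+/- replicate 1 (adjusted p = 0.119), without WT replicate 2 (0.0633) and without WT replicate 3 (0.0649), where edgeR called at most 8 of all genes. With the muscle covariate the log2 fold change was 1.49, and the adjusted p of 0.842 stood in a fit with 0 calls that can barely tell muscle from genotype. Summed osteoblast (mostly Col1a2) and cartilage markers were, like Lgr6, higher in every Col1a1+/- library than in any WT library. They took 8.86% ± 0.516 and 0.415% ± 0.0825 of counts in Col1a1+/-, against 4.63% ± 0.821 and 0.161% ± 0.0391 in WT (SD, n = 3 each). The same held for the sums of osteocyte (means 0.198% and 0.128%) and osteoclast markers (0.856% and 0.592%). It also held for the sums of periosteum and skeletal stem cell (0.463% and 0.318%) and of tendon and enthesis markers (0.132% and 0.0786%). Only 3 of the 7 tendon genes had a log2 fold change above 0 (median -0.49). The 1 called, Comp (736 CPM in Col1a1+/-, 313 CPM in WT), is also in the cartilage list. Ctsk, also in the osteoclast list, made up most of the periosteum sum (2960 CPM in Col1a1+/-, 2110 CPM in WT). Of the 11 tested osteocyte and the 11 osteoclast markers, 0 were called by edgeR. The part of these lists in the difference of Lgr6 was not tested.

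Lgr4, the broadly expressed receptor of the 3, had 59.3, 61.7 and 60.8 CPM in Col1a1+/- and 44.1, 48.4 and 49.3 CPM in WT. The genotypes did not overlap and the Col1a1+/- libraries were close together (60.6 ± 1.22 CPM in Col1a1+/- against 47.3 ± 2.81 CPM in WT), for a log2 fold change of 0.36 (adjusted p = 0.063, SE 0.09). DESeq2 called Lgr4 (adjusted p = 0.0246), and so did edgeR without WT replicate 1 (adjusted p = 0.0475). Lgr5, a marker of intestinal stem cells, had 1.05, 1.5 and 0.989 CPM in Col1a1+/- and 0.868, 0.616 and 1.87 CPM in WT, which overlapped (0.08, adjusted p = 0.946). Lgr6 took 32.7% ± 5.15 of LGR reads per kb in Col1a1+/- and 18.6% ± 2.81 in WT, and Lgr4 66.5% ± 5.13 in Col1a1+/- and 80.3% ± 2.32 in WT (SD, n = 3 each).

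**Figure D4:**
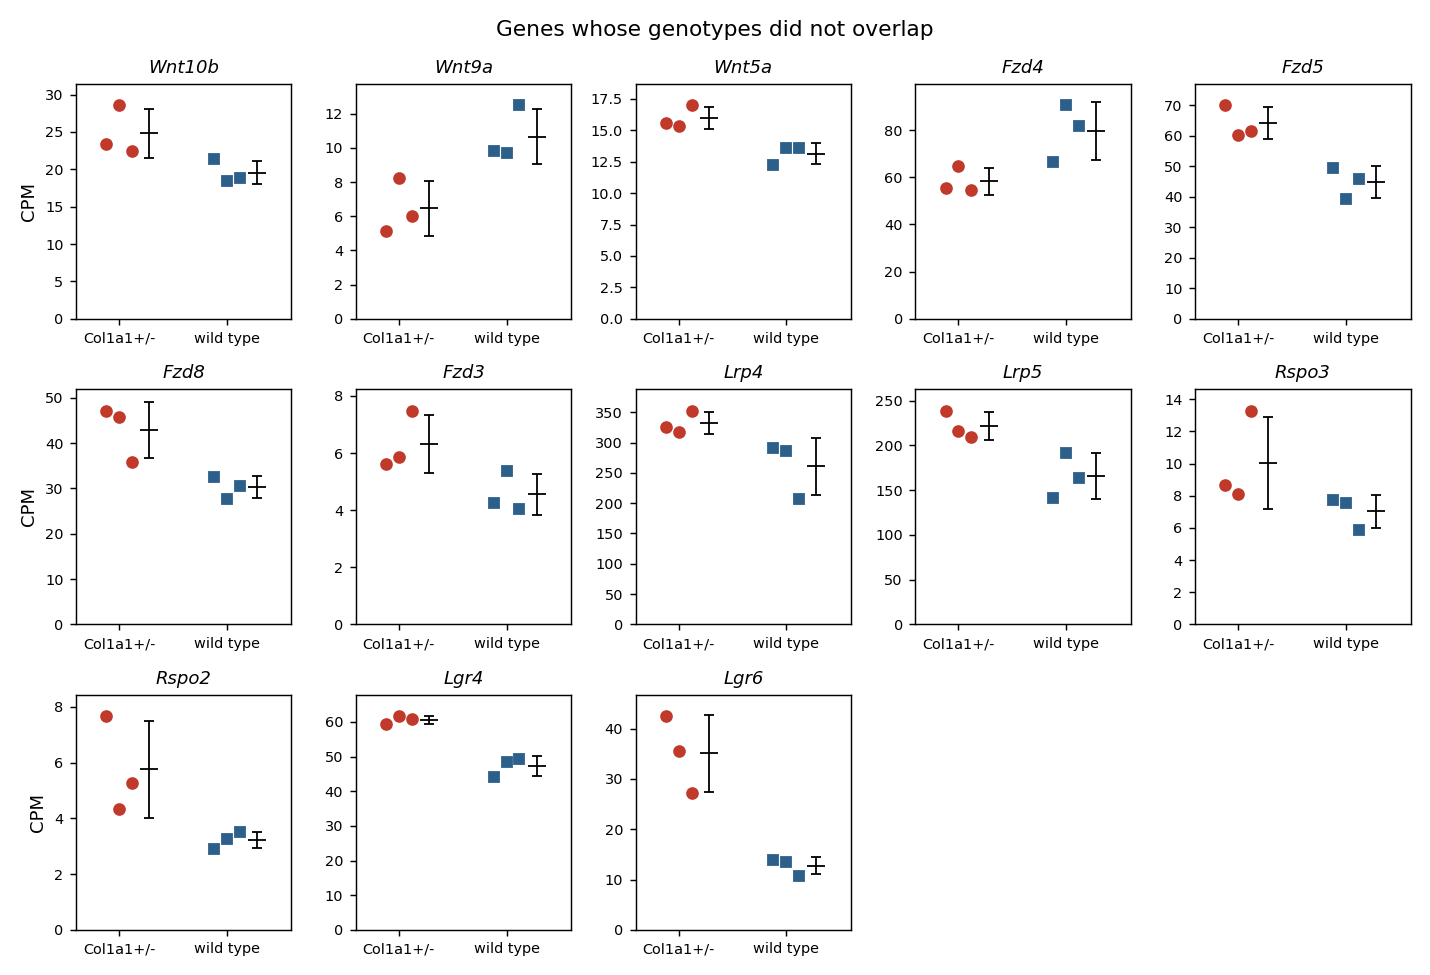
CPM of the 13 genes whose genotypes did not overlap, 1 point per library, Col1a1+/- left of WT, with the mean and SD as a bar beside the points. In 11 genes every Col1a1+/- library lies above every WT library, and in Wnt9a and Fzd4 below.

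Ratios between related genes within a library do not depend on how libraries are scaled. For 9 such ratios, chosen by family relation, an exact two-sided permutation test over 3 libraries against 3 cannot give a p below 0.1, and 4 reached it (adjusted p = 0.225 over the 9). Lgr6 to Lgr4 was 0.615, 0.495 and 0.384 in Col1a1+/- and 0.271, 0.239 and 0.189 in WT, 2.14 times as high in Col1a1+/-. Fzd1 to Fzd7 was 1.09, 0.914 and 1.44 in Col1a1+/- and 0.673, 0.704 and 0.76 in WT (1.61 times). Fzd2 to Fzd7 was 0.608, 0.404 and 0.458 in Col1a1+/- and 0.321, 0.225 and 0.309 in WT (1.72 times). Both ratios divide by Fzd7, so they are not separate observations. The part of tissue content in the ratios was not tested, nor how often ratios of other gene pairs separate. Fzd3 to Fzd6 was 0.169 ± 0.0272 in Col1a1+/- and 0.118 ± 0.0133 in WT (1.43 times; SD, n = 3 each). Wnt5a to Wnt5b, Fzd5 to Fzd8, Fzd9 to Fzd4, Lrp5 to Lrp6 and Rspo2 to Rspo3 overlapped between the genotypes.

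**Figure D5:**
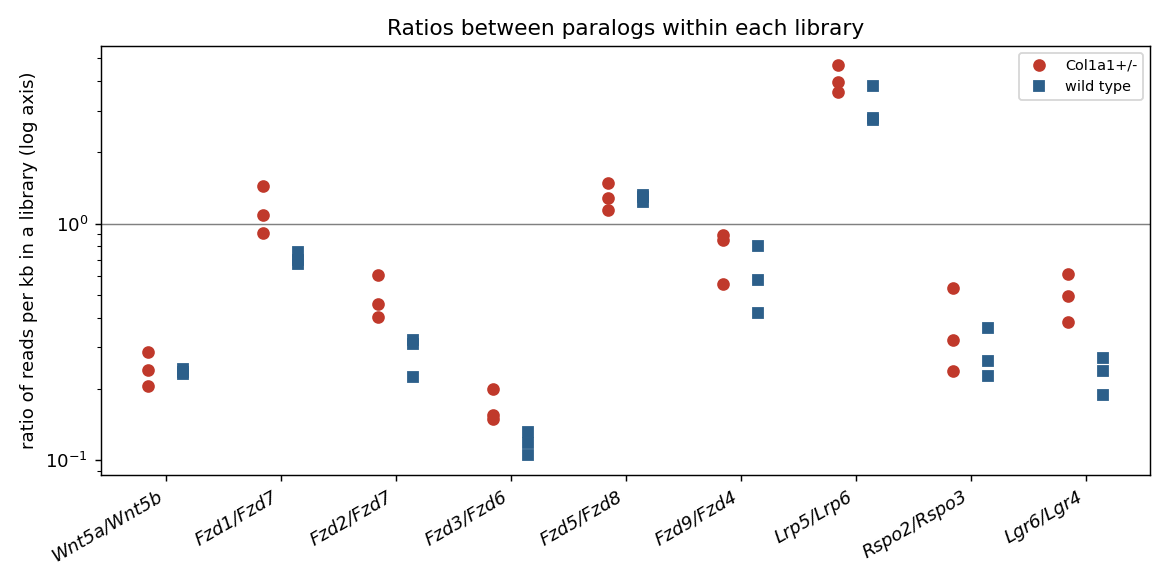
Ratio of reads per kb between related genes within each library (log axis), Col1a1+/- as circles left of WT squares. The genotypes separate for Fzd1/Fzd7, Fzd2/Fzd7, Fzd3/Fzd6 and Lgr6/Lgr4.

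The stretches before the starts of Lgr6 and Fzd5 are shown because these 2 members were called. They are the 250 bases before the RefSeq start (GRCm38.p6, minus strand, 5′ to 3′), and capitals mark the GC box GGGCGG on either strand.
Lgr6, chr1:135105277-135105526: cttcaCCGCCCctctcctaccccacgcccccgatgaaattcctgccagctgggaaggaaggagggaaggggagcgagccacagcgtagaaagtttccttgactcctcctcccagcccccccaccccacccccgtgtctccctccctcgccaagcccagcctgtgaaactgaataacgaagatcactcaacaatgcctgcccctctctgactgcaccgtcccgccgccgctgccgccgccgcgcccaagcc
Fzd5, chr1:64737751-64738000: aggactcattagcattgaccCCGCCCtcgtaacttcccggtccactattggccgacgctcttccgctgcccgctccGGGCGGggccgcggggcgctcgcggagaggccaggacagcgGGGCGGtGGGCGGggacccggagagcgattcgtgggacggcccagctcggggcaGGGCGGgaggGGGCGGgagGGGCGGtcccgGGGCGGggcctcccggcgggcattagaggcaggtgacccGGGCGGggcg
The Fzd5 stretch held 9 GC boxes and was 76.4% G or C, and the Lgr6 stretch held 1 and was 65.2% G or C, where the median over 32851 mouse promoters was 52.4%. A GC box was found in 20 of 28 promoters of the 25 members matched by symbol, and in 32.7% of all promoters. Most of these 28 promoters were richer in G or C than the median promoter (48.4% to 87.6%), and base content was not taken into account. The 28 also include promoters of untested members, such as Wnt3a and Wnt7a. Neither stretch held a TCF/LEF word (CTTTGAA and CTTTGAT, and also CTTTGTA or CTTTGTT, on either strand), which 3 of the 28 member promoters and 14.8% of all promoters held. The RUNX words TGTGGT and TGCGGT were also not in either stretch, and stood in 2 member promoters and 18.6% of all promoters.

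Around the receptors, 69 further tested genes of the pathway in 7 lists held 7 that rose (10.1%, beside 1.43% of all genes) and 0 that fell. The median log2 fold change of the 69 was 0.25. The lists were chosen with earlier results of these data known, so these shares are not an independent comparison. On osteoblast scaling 0 were called higher and 32 lower (46.4%), beside 60.4% of all genes called lower. Of 7 genes for Wnt secretion and handling outside the cell, 2 rose. Notum, a secreted enzyme that removes the lipid from Wnts and is itself a beta-catenin target, had 18.1, 11.9 and 13.6 CPM in Col1a1+/- and 4.96, 6.56 and 7.48 CPM in WT (2.3-fold, adjusted p = 0.0286). Gpc4, a glypican that holds Wnts at the cell surface, rose 1.5-fold (adjusted p = 0.0344). Wls, which carries Wnts to the cell surface, did not pass, at 98.3 ± 10.1 CPM in Col1a1+/- and 77.5 ± 5.94 CPM in WT (SD, n = 3 each; adjusted p = 0.111). The 2 ligases that R-spondins and LGR receptors act on did not pass either. Znrf3 had 9.71, 9.96 and 9.25 CPM in Col1a1+/- and 7.78, 7.57 and 6.69 CPM in WT (log2 fold change 0.39, adjusted p = 0.171), and Rnf43 had 1.44 to 2.06 CPM in Col1a1+/- and 0.652 to 2.05 CPM in WT (0.38, adjusted p = 0.643).

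Of 15 alternative Wnt receptors and planar polarity genes 2 rose, Ptk7, a pseudokinase receptor of planar polarity (log2 fold change 0.64; 54.5 ± 6.86 CPM in Col1a1+/- and 35.1 ± 3.32 CPM in WT; adjusted p = 0.0336), and Reck, a membrane protein that serves as a Wnt7 co-receptor (1.38-fold, adjusted p = 0.0414). None of 17 genes of the cytoplasmic relay and the beta-catenin destruction complex passed, and their median log2 fold change was 0. The smallest p values there belonged to Ctnnb1, which encodes beta-catenin (596 ± 36.3 CPM in Col1a1+/- and 469 ± 36.4 CPM in WT; log2 fold change 0.34, adjusted p = 0.158), and Amer1 (-0.27, adjusted p = 0.276). Of 13 nuclear TCF/LEF genes 1 rose, Tcf7, a transcription factor that is also a beta-catenin target, with 53.9, 44.1 and 49.4 CPM in Col1a1+/- and 25.9, 31.3 and 30.8 CPM in WT (1.67-fold, adjusted p = 0.024). Of 10 tested secreted antagonists 2 rose. Frzb, a decoy receptor of cartilage, had 38.4, 32.2 and 32 CPM in Col1a1+/- and 18.7, 14.9 and 15.8 CPM in WT (2.08-fold, adjusted p = 0.0192), and Wif1, which binds Wnts directly, 385, 348 and 360 CPM in Col1a1+/- and 173, 244 and 240 CPM in WT (1.66-fold, adjusted p = 0.0387). Among 10 tested feedback targets of beta-catenin, Notum and Tcf7 were the called genes, while Axin2, the most general of these targets, stood at 7.83 ± 1.2 CPM in Col1a1+/- and 7.51 ± 0.447 CPM in WT (0.06, SE 0.18, adjusted p = 0.879). None of these 7 genes kept its call without Col1a1+/- replicate 1, Col1a1+/- replicate 3, WT replicate 2 or WT replicate 3, or with the muscle covariate, fits that called 0 to 44 genes of the whole table. Their log2 fold changes in the fits without a library were 0.98 to 1.12 for Frzb, 1.03 to 1.34 for Notum, 0.71 to 0.82 for Wif1, 0.69 to 0.79 for Tcf7, 0.55 to 0.72 for Ptk7, 0.50 to 0.66 for Gpc4 and 0.42 to 0.53 for Reck. With the muscle covariate the values ran from 0.38 for Gpc4 to 1.2 for Notum.

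Scaling the libraries to bone cell markers moved all genes downward, to a median log2 fold change of -0.77 on osteoblast markers and -0.70 on osteocyte markers. Relative to the median of all genes, 0 of the 29 members changed sign on either scale, and their values moved by at most 0.07 on the osteoblast and 0.14 on the osteocyte scale. Such a scaling moves all genes by nearly the same amount, and subtracting the median takes that shift out again. The steadiness of the relative values therefore follows from the calculation and is no test of bone cell content. Lgr6 was 1.46 and 1.50 above that median on the osteoblast and osteocyte scales and 1.47 above it on the TMM scale, Fzd5 0.50, 0.49 and 0.52 above, and Wnt9a at -0.70, -0.72 and -0.72. In absolute terms 26 of the 29 members were below 0 on each of these scales, with Lgr6, Rspo2 and Rspo4 above 0 on both. On osteoblast scaling 10 members (34.5%) were called lower, beside 60.4% of all genes, and Lgr6 was the only member called higher (0.69, adjusted p = 0.0305), beside 0.113% of all genes. On osteocyte scaling 3 members were called lower (Wnt9a, Fzd4 and Fzd7; 10.3%), beside 14.7% of all genes, and 0 higher, with Lgr6 at 0.79 (adjusted p = 0.13).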

How the data were processed

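Per the file headers, the authors deposited whole-number read counts per gene from featureCounts 2.0.3, without strand, with multi-mapping reads and reads shared between genes left out, on Ensembl 107 annotation of GRCm39; each mate of a pair was counted. Trimmomatic 0.39, HISAT2 2.2.1 and SAMtools 1.20 are named in the submitters' processing notes. Symbols came from a gene name table, which matched 52073 of 56748 identifiers and all 39 members.

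Counts were fitted with edgeR 4.0.16 (R 4.3.3; TMM scaling, filterByExpr, robust quasi-likelihood F test), modelling genotype alone, with p-values adjusted by Benjamini-Hochberg over 18514 genes; a gene was called at an adjusted p under 0.05. The steps were tested on simulated data. Alternatives were DESeq2 1.42.0, limma 3.58.1 with voom, other scalings and filters, halved counts, marker covariates, a replicate block and leaving out each library. Ratios used SciPy 1.17.1. The members and lists were chosen with earlier results of these data known. All members are accounted for: those with a mean of at least 1 CPM, a call or no overlap between genotypes by library, other tested ones by range, untested ones by counts. Of each pathway list, called genes are named, or the 2 with the smallest p; Wls and Axin2 were added after their values were seen. Count intervals and floors cover counting error only.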

Additional observations from a re-analysis of the deposited data

How the results depend on the processing

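The counts of 2 members higher and 0 lower were the same with DESeq2's size factors, a filter of 1 CPM, voom and halved counts. On library totals 3 were called higher, Lrp5, Lgr4 (0.45, adjusted p = 0.0432 by edgeR) and Lgr6, while Fzd5 was not. With no count filter 3 were called higher, Fzd5, Fzd8 and Lgr6. That fit called Wnt9a (adjusted p = 0.0319 by edgeR) and Fzd4 lower. The count of higher members was 0 on osteocyte scaling, 1 on osteoblast scaling, 6 with DESeq2, 0 with the muscle covariate, 1 with the neutrophil and erythroid covariate, and 0 to 4 with 1 library left out. The count of lower members was 3 on osteocyte scaling, 10 on osteoblast scaling, 2 with no count filter, 2 with DESeq2, and 0 to 1 with 1 library left out. The 7 pathway genes called higher became 0 on osteocyte and on osteoblast scaling, 11 with DESeq2, 0 with the muscle covariate, 1 with the neutrophil and erythroid covariate, and 0 to 9 with 1 library left out, and those called lower became 3 on osteocyte and 32 on osteoblast scaling. With the replicate number as a block, 1 member (Lgr6) and 1 pathway gene (Frzb) were called higher, and Fzd5 stood at 0.52 (adjusted p = 0.0667 by edgeR); same-numbered libraries correlated at 0.107, 0.041 and -0.122 in their deviations from the group means, so the numbers do not pair the libraries.

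Log2 fold changes that reversed on osteocyte and then osteoblast scaling were -0.37 and -0.46 for Wnt4, -0.40 and -0.47 for Wnt5a, -0.43 and -0.48 for Wnt5b, -0.29 and -0.28 for Wnt7b, -0.37 and -0.43 for Wnt10b, -0.48 and -0.52 for Fzd1, -0.39 and -0.45 for Fzd2, -0.20 and -0.27 for Fzd3, -0.21 and -0.27 for Fzd5, -0.19 and -0.27 for Fzd8, -0.33 and -0.45 for Fzd10, -0.36 and -0.43 for Lrp4, -0.22 and -0.31 for Lrp5, -0.67 and -0.72 for Lrp6, -0.23 and -0.26 for Rspo3, -0.32 and -0.39 for Lgr4, -0.63 and -0.66 for Lgr5, -0.12 and -0.17 for Gpc4, -0.05 and -0.11 for Ptk7, and -0.23 and -0.30 for Reck. These scalings moved all genes by nearly the same amount, to a median of -0.70 and -0.77. The downward direction comes from these libraries, where the osteocyte and osteoblast markers had median log2 fold changes of 0.56 and 0.74. With the muscle covariate, whose values did not overlap between the genotypes, Wnt9a was 0.03, Wnt11 0.11, Fzd6 0.01, Fzd7 0.20, Fzd9 1.19, Lrp4 -0.07 and Rspo3 -0.39. With the neutrophil and erythroid covariate Wnt7b was -0.48, Fzd1 -0.12, Lrp6 -0.10 and Lgr5 -0.37, and on library totals Fzd6 was 0.05 and Fzd9 0.03. With 1 library left out Fzd6 ranged from -0.05 to 0.01, Fzd9 from -0.23 to 0.25, Lrp6 from -0.01 to 0.10 and Lgr5 from -0.21 to 0.66. For the covariates, DESeq2 and left-out libraries the cause was not tested. With 3 libraries a genotype, the 5 tested members with the fewest reads had standard errors of 0.45 to 0.69.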
